A study of Homo sapiens with 12 samples.

Results

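The 30 genes described here encode subunits of the human SWI/SNF chromatin remodelling complexes: BAF, PBAF and the non-canonical complex ncBAF. They were chosen by symbol from the known composition of these complexes, and every probe set that the platform annotation gives to 1 of these symbols was taken. That gave 92 of the 54675 probe sets on the array, with at least 1 probe set for each of the 30 genes, out of 19775 genes named on the array. One further probe set, annotated to both DDX27 and SS18, was left out.

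Expression was measured in 22Rv1 cells, a line established from a human prostate carcinoma xenograft, on 12 Affymetrix U133 Plus 2.0 arrays, whose probes lie near the 3' end of messages. The treated groups received a small compound, described by the series title as inhibiting the transcription factor ONECUT2, for 4 h, 6 h or 16 h, and the remaining group received vehicle. Each of the 4 groups held 3 arrays. The labels give neither a dose nor a time for the vehicle arrays, and the 16 h titles miss a code element that the other 9 titles carry, so whatever that element stands for cannot be told apart from the 16 h treatment. Whether the 3 arrays of a group came from separate cultures is not stated, so the p-values below measure only the spread between these arrays.

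SWI/SNF complexes use the energy of ATP to slide or evict nucleosomes and so keep promoters and enhancers open for transcription factors. BAF and PBAF are each built on a shared core and a single ATPase, SMARCA2 or SMARCA4, and take their identity from further subunits. These are ARID1A or ARID1B with a DPF protein in BAF, and ARID2, PBRM1, BRD7 and PHF10 in PBAF. The complex ncBAF is defined by BRD9 with BICRA or BICRAL. In prostate tumour cells the complexes are known for holding lineage enhancers open, and several subunits are tumour suppressors in other tissues.

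The values are log2 signals as deposited. Where several probe sets read 1 gene, the one with the highest mean signal stood for it (the brightest probe set), and genes whose brightest probe set had a mean of 2.11 or more were tested, which left 27 of the 30 members and 12635 genes in all. The highest signal of the unspiked bacterial control probe sets lay between 1.87 and 2.28 on the 12 arrays and marks the level of no transcript. DPF3, ACTL6B and BCL11B, the members known from muscle, neurons and lymphocytes, fell under the filter with means of 2.08, 1.77 and 1.52. Of the prostate luminal markers, 8 passed the filter, among them KRT18 at 11.48 ± 0.07 on the 16 h arrays and 11.29 ± 0.05 on the vehicle arrays (SD, n = 3 each). Only 1 of 5 leukocyte and 1 of 4 endothelial markers passed the filter.

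At 16 h, 12 of the 27 tested members had changed against vehicle (limma, Benjamini-Hochberg adjusted p below 0.05 over 12635 genes). Of these, 5 rose (SMARCA2, SMARCD3, DPF2, PBRM1 and SS18L1, with changes of 0.22 to 0.49 on the log2 scale) and 7 fell (SMARCB1, SMARCC1, SMARCC2, BRD7, PHF10, BCL7A and BCL7C, with changes of -1.41 to -0.20). The other 15 did not pass. Of all genes tested, 42.8% were called in this comparison (26.0% higher and 16.8% lower), so 12 of 27 is a share near that of the array as a whole. The median log2 change was -0.08 over the members and 0.05 over all genes. At 4 h 1 member, BCL7A, had fallen and none had risen, beside 0.459% of all genes called (0.332% higher and 0.127% lower). At 6 h no member passed, beside 0.0317% of all genes, and 3 of the 27 members had an unadjusted p below 0.05, as did 1039 of the 12635 genes. All 3 comparisons share the vehicle arrays. RNA from a culture cannot separate fewer cells of a kind from less RNA per cell.

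**Figure D1:**
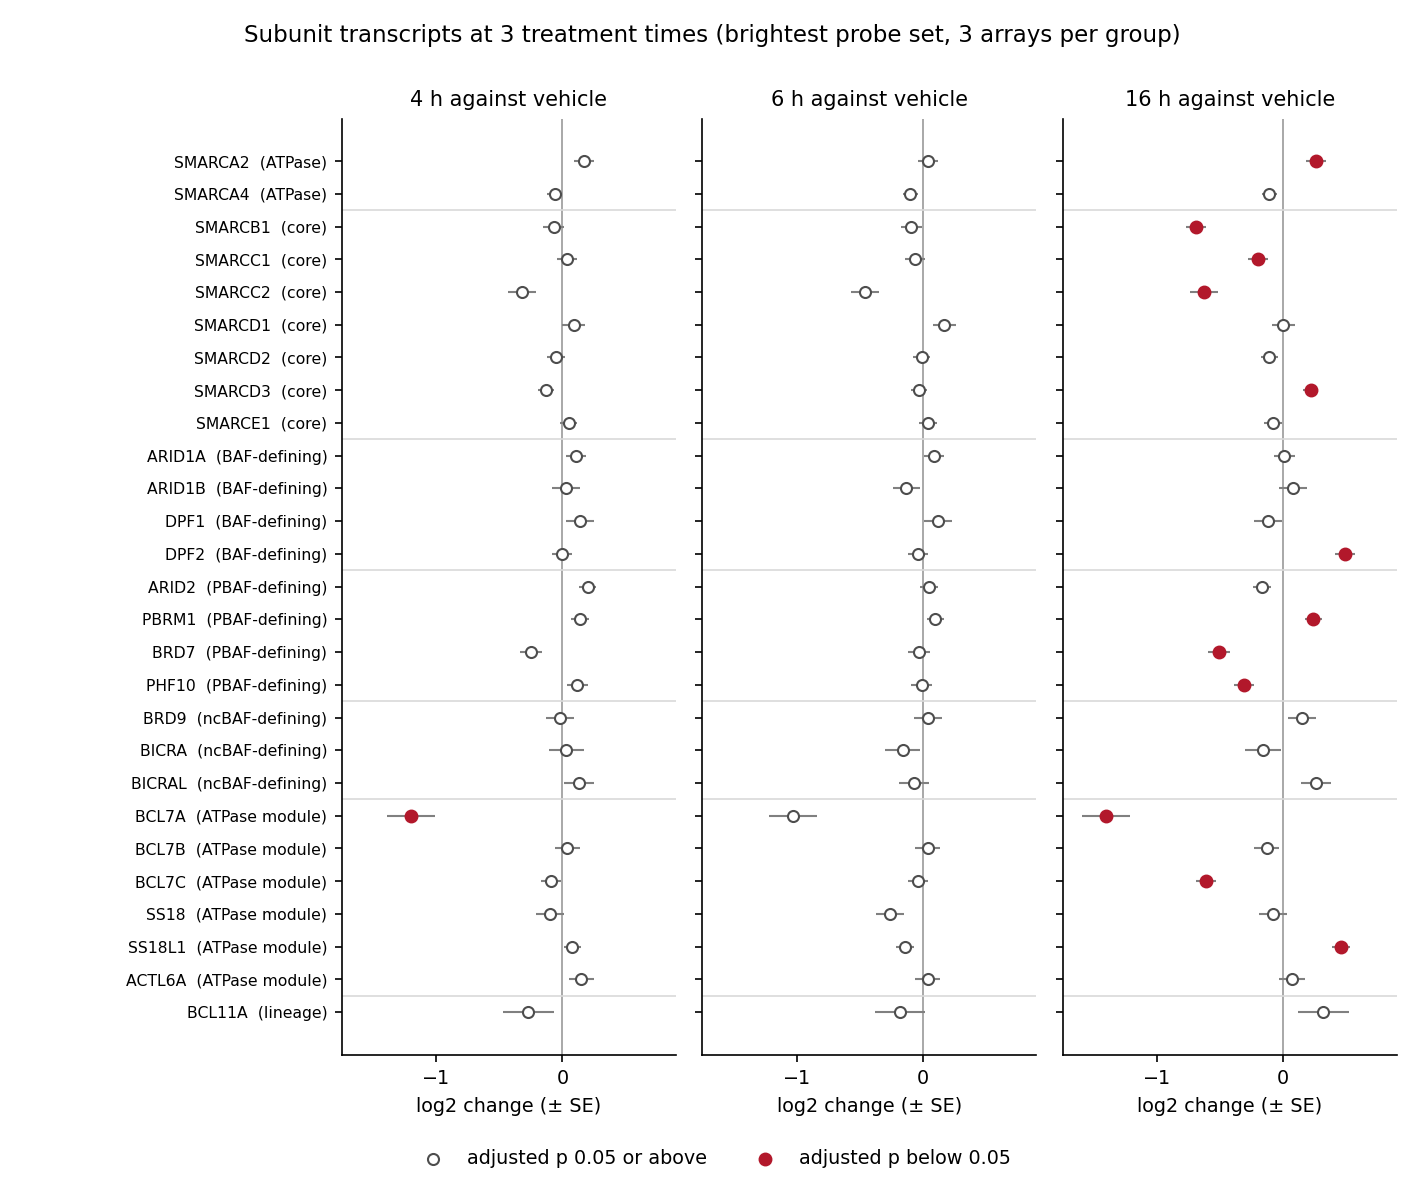
Log2 change of the brightest probe set (horizontal axis, ± SE) of each of the 27 tested subunit genes (rows, by role) after 4 h, 6 h and 16 h against vehicle, 3 arrays per group. Filled red points passed limma's adjusted p of 0.05: BCL7A at 4 h, no gene at 6 h, and 12 genes at 16 h, of which 7 lie left of zero.

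The number of rises depended on the scaling and on single arrays. With each array centred on the median of its tested genes, which were higher by 0.10 on the 16 h arrays than on the vehicle arrays, 2 members were higher and 8 lower at 16 h, and over all genes 19.2% were higher and 23.9% lower. Quantile normalisation gave values nearer the main fit, with 4 members higher and 8 lower, beside 23.3% and 20.6% of all genes. Without vehicle replicate 1 the rises numbered 2, and without 16 h replicate 2 they numbered 3. The falls numbered 6 or 7 whichever array was left out. The shares of all genes with an array left out are not given here.

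Other measures moved with the 16 h arrays. The ACTB control probe sets, which read the message of beta-actin at its 5' end, middle and 3' end, differed from vehicle at 16 h by -1.38, -0.75 and -0.10. The GAPDH control probe sets did not show such a gradient, with differences at 16 h of 0.07 at the 5' end and 0.10 at the 3' end. The 18S ribosomal RNA control at its 5' end was below vehicle on the 4 h and 6 h arrays (differences of -0.59 and -1.01) and above it on the 16 h arrays (1.64). For the ACTB 5' and 18S 5' controls at 16 h the exact two-sided permutation p was 0.1, the smallest that 3 against 3 arrays allow. The luminal markers themselves moved: of the 8 tested, 1 rose and 5 fell at 16 h, with a median change of -0.42, STEAP2 being at 8.57 ± 0.07 against 9.62 ± 0.05 in vehicle (SD, n = 3 each). Both tested neuroendocrine markers, SYP and ENO2, fell (changes of -0.42 and -0.34). Among fibroblast markers, 4 of 5 were tested. Of these, 2 were higher at 16 h (COL1A1, a collagen chain, at 5.82 against 3.77 in vehicle, and LUM, lumican, at 5.35 against 4.10), and COL3A1 and DCN were lower. Their summed linear signal was 92.4 to 127 at 16 h and 43.8 to 53.4 in vehicle. The part of these measures in the subunit results was not tested.

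The paralogous ATPases provide the motor of the complexes. SMARCA4 (BRG1) did not pass on its brightest probe set 208794_s_at: its log2 signals were 9.22, 9.07 and 9.12 on the vehicle arrays, 9.09, 9.06 and 9.08 at 4 h, 9.05, 9.00 and 9.07 at 6 h, and 9.08, 8.97 and 9.03 at 16 h. The 12 values lie within 0.25 of each other. The 4 h and 16 h arrays overlap those of vehicle, and the 6 h arrays lie just below them, with a change at 16 h of -0.11 ± 0.06 (limma, adjusted p = 0.155). SMARCA2 (BRM), on 217707_x_at, had 8.42, 8.55 and 8.60 in vehicle, 8.64, 8.66 and 8.79 at 4 h, 8.51, 8.48 and 8.69 at 6 h, and 8.73, 8.83 and 8.78 at 16 h. Its 16 h arrays all lie above the vehicle arrays and the change was 0.26 ± 0.08 (limma, adjusted p = 0.0178). It missed the threshold after vehicle replicate 1 (0.21, adjusted p = 0.0715) or 16 h replicate 2 (0.23, adjusted p = 0.0606) was left out, and under median centring (0.16, adjusted p = 0.0818).

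Further probe sets of both ATPases gave other values. For SMARCA2, 212257_s_at had 5.02, 3.81 and 4.25 in vehicle, 3.48, 3.15 and 3.51 at 4 h, 3.40, 3.03 and 2.91 at 6 h, and 2.84, 2.17 and 1.94 at 16 h. Each treated array is lower than each vehicle array, and the 16 h arrays are near the level of the unspiked controls. The change was -0.97 ± 0.29 at 4 h and -1.24 ± 0.29 at 6 h, neither of which passed (limma over 27306 probe sets, adjusted p = 0.209 and 0.0731), and -2.04 ± 0.29 at 16 h (adjusted p = 0.000193). SMARCA2 206542_s_at and 206544_x_at changed by 0.13 and -0.10 at 16 h without passing. The mean of all 7 SMARCA2 probe sets, also those under the filter, changed by -0.27 at 16 h (limma, adjusted p = 0.00458). Its direction was the opposite of that of the brightest probe set alone, and 212257_s_at had by far the largest change of the 7.

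For SMARCA4, 212520_s_at had 8.29, 7.68 and 8.00 in vehicle, 7.70, 7.30 and 7.42 at 4 h, 7.43, 7.58 and 7.35 at 6 h, and 6.74, 6.76 and 6.65 at 16 h. The 16 h arrays lie below all other arrays, with a change of -1.27 ± 0.14, a fall of 2.42-fold (limma, adjusted p = 3.89e-05). SMARCA4 1569073_x_at went the other way, with 3.15, 3.11 and 3.16 at 16 h against 2.45, 2.67 and 2.94 in vehicle (0.46 ± 0.13, adjusted p = 0.0143), which missed the threshold once vehicle replicate 1 was left out (0.34, adjusted p = 0.0614). The remaining 5 further probe sets of SMARCA4 that were tested changed by -0.31 to -0.10 and none of them passed.

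The core subunits hold BAF and PBAF together. SMARCB1 (SNF5), the subunit lost in rhabdoid tumours, had on 212167_s_at 8.45, 8.25 and 8.34 in vehicle, 8.26, 8.20 and 8.37 at 4 h, 8.22, 8.24 and 8.31 at 6 h, and 7.63, 7.58 and 7.77 at 16 h. Vehicle, 4 h and 6 h overlap and the 16 h arrays stand below all of them. The change at 16 h was -0.69 ± 0.08, or 1.61-fold lower (limma, adjusted p = 2.95e-05). It kept its direction and passed in each of 15 refits, with changes from -0.78 to -0.29.

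Transcripts of SMARCC1 (BAF155) and SMARCC2 (BAF170), scaffold proteins that bind each other in the core, were both lower at 16 h on the brightest probe set. SMARCC2, on 201321_s_at, had 7.27, 7.16 and 7.39 in vehicle, 7.05, 6.79 and 7.01 at 4 h, 6.69, 6.85 and 6.90 at 6 h, and 6.77, 6.39 and 6.77 at 16 h. All treated arrays lie below all vehicle arrays, and the changes were -0.32 ± 0.11 at 4 h, -0.46 ± 0.11 at 6 h and -0.63 ± 0.11 at 16 h, of which the last passed (limma, adjusted p = 0.326, 0.249 and 0.000892). A further probe set of SMARCC2, 201320_at, fell by 0.52 ± 0.09 at 16 h (adjusted p = 0.000656), while 1561973_at had a change of 0.17 ± 0.18.

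On its brightest probe set 201074_at SMARCC1 fell by 0.20 ± 0.08 at 16 h (limma, adjusted p = 0.0463). This call was lost without 16 h replicate 2 or 3 (-0.17 and -0.19) and without any single vehicle array (-0.23, -0.21 and -0.17 without replicates 1, 2 and 3), with adjusted p from 0.0557 to 0.146. It also did not pass with no filter (adjusted p = 0.08), with the 2 groups fitted alone (adjusted p = 0.0776) or with probe sets of neither the _s_at nor the _x_at suffix preferred (adjusted p = 0.0525). The other probe sets of SMARCC1 fell further. SMARCC1 201072_s_at had 9.81, 8.96 and 9.22 in vehicle, 8.98, 8.50 and 8.70 at 4 h, 9.07, 8.81 and 8.79 at 6 h, and 7.40, 7.36 and 7.21 at 16 h. The 3 arrays at 16 h lie more than 1 log2 unit below every other array, with a change of -2.01 ± 0.19, or 4.02-fold lower (adjusted p = 9.52e-06). SMARCC1 201075_s_at fell by 0.66 ± 0.10 (adjusted p = 0.000322), and the change of 201073_s_at was -0.79 ± 0.25 (adjusted p = 0.0246), the last call being lost without vehicle replicate 1 (-0.62) or 3 (-0.77) and without 16 h replicate 2 (-0.73) or 3 (-0.72).

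The remaining core genes changed little on their brightest probe sets. SMARCD1, SMARCD2 and SMARCD3 are paralogs that link the complexes to transcription factors. SMARCD3 (BAF60C), the form known from heart and muscle, rose by 0.22 ± 0.06, with 4.07 to 4.17 at 16 h against 3.85 to 3.95 in vehicle (limma, adjusted p = 0.0161). It did not pass after vehicle replicate 1 (0.20, adjusted p = 0.0552) or 16 h replicate 2 (0.19, adjusted p = 0.0596) was left out, nor with median centring (0.12, adjusted p = 0.173), quantile normalisation (0.12, adjusted p = 0.156), the mean of its probe sets (0.16, adjusted p = 0.055) or a trended and robust prior (adjusted p = 0.114). SMARCD1 and SMARCD2 had changes of 0.00 ± 0.09 and -0.11 ± 0.07, and SMARCE1 (BAF57), an HMG-box protein that binds DNA, had -0.08 ± 0.07. Further probe sets of SMARCD1 and SMARCE1 passed, with -0.65 ± 0.19 on 203183_s_at (adjusted p = 0.015) and 0.46 ± 0.16 on 236016_at (adjusted p = 0.0375). At 16 h SMARCD1 203183_s_at was near the level of the unspiked controls, with a mean of 2.10 against 2.76 in vehicle. The SMARCD1 call was lost without 16 h replicate 2 (-0.61, adjusted p = 0.0511), and the SMARCE1 call without vehicle replicate 1 (0.31) or 2 (0.48) or 16 h replicate 3 (0.34), and with either other scaling, array weights or the 2 groups alone (0.35 to 0.46).

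**Figure D2:**
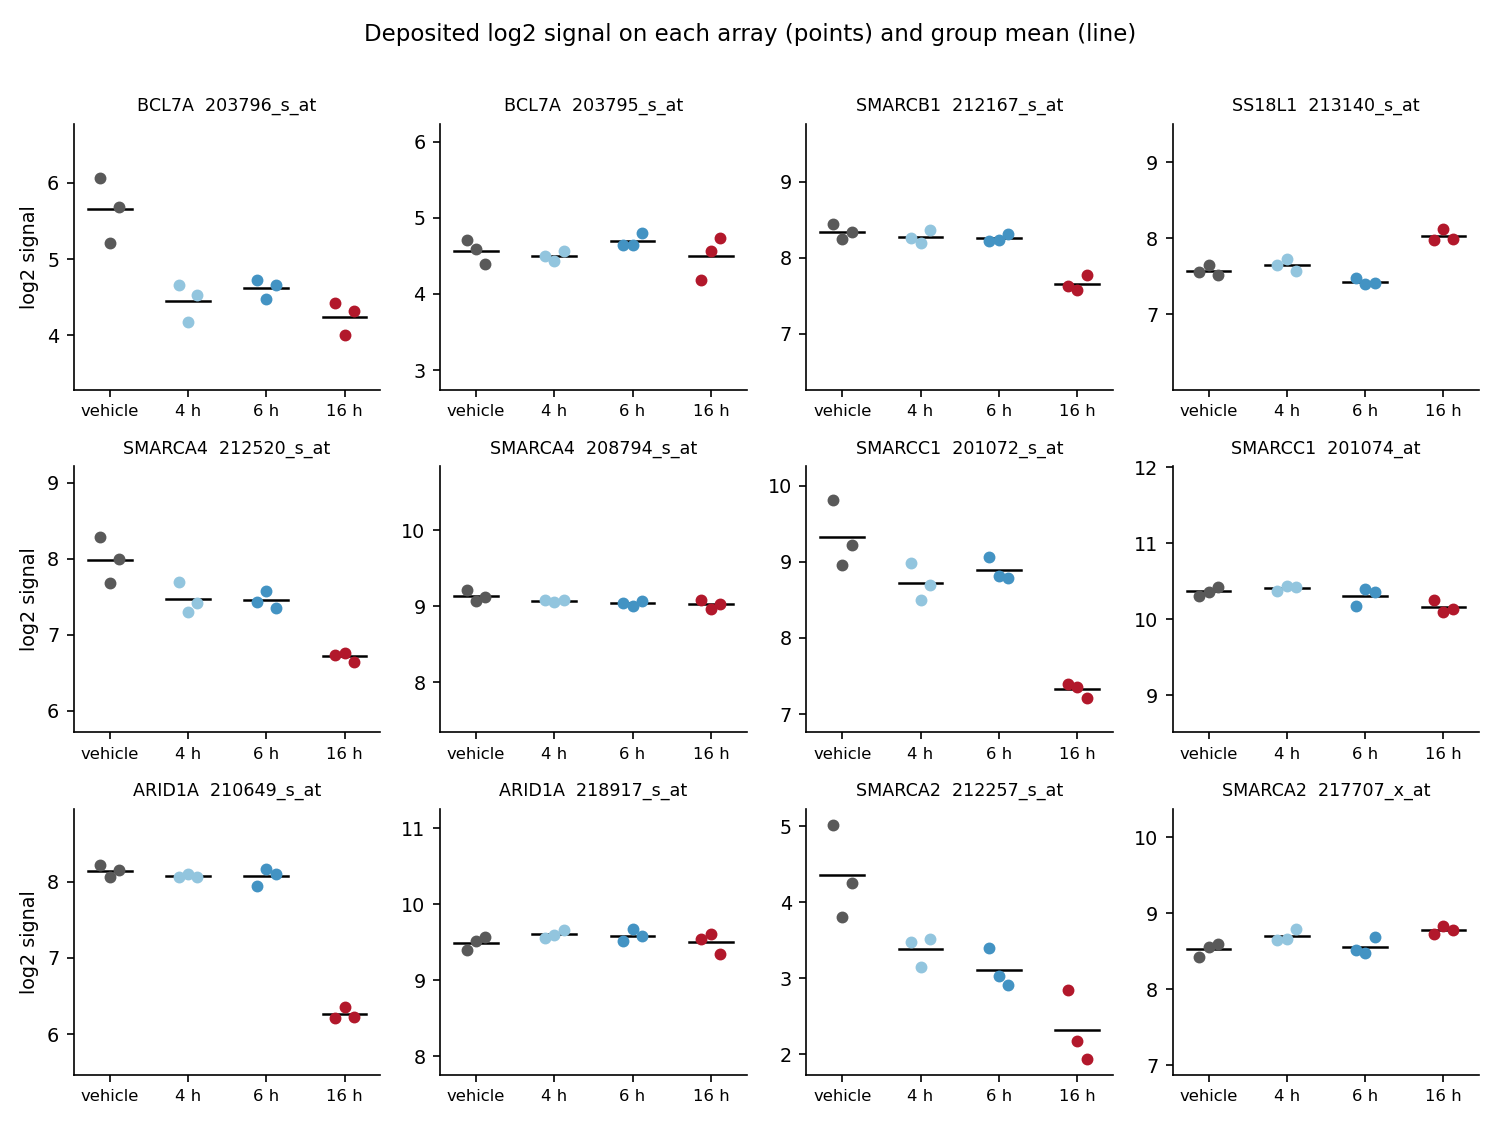
Deposited log2 signal (vertical axis, each panel spanning the same number of log2 units) on each of the 12 arrays for named probe sets of BCL7A, SMARCB1, SS18L1, SMARCA4, SMARCC1, ARID1A and SMARCA2, by group; the line is the group mean of 3 arrays. BCL7A 203796_s_at is lower on all treated arrays, and for SMARCA4, SMARCC1, ARID1A and SMARCA2 the left panel of each pair falls at 16 h while the right one stays within 0.5 of vehicle.

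Among the subunits that define BAF, ARID1A, the AT-rich binding subunit most often mutated in cancer, showed no change on its brightest probe set 218917_s_at. Its signals were 9.40, 9.52 and 9.57 in vehicle, 9.56, 9.60 and 9.66 at 4 h, 9.52, 9.67 and 9.58 at 6 h, and 9.55, 9.61 and 9.35 at 16 h, which overlap throughout (0.01 ± 0.08, adjusted p = 0.94). ARID1A 210649_s_at had 8.22, 8.07 and 8.16 in vehicle, 8.06, 8.10 and 8.07 at 4 h, 7.95, 8.17 and 8.10 at 6 h, and 6.21, 6.36 and 6.22 at 16 h. Its first 3 groups overlap and the 16 h arrays stand apart, with a change of -1.89 ± 0.08, or 3.7-fold lower (limma, adjusted p = 1.97e-08). ARID1A 212152_x_at fell by 0.90 ± 0.11 (adjusted p = 6.65e-05), and the dim 207591_s_at had 0.00 ± 0.09.

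ARID1B, the paralog that takes the place of ARID1A, had on 225181_at 7.37, 7.37 and 7.41 in vehicle, 7.48, 7.29 and 7.47 at 4 h, 7.31, 7.08 and 7.37 at 6 h, and 7.51, 7.66 and 7.21 at 16 h. The groups overlap and the change at 16 h was 0.08 ± 0.11 (limma, adjusted p = 0.626). ARID1B 238043_at and 1566990_x_at fell at 16 h, with changes of -0.35 ± 0.12 and -0.33 ± 0.11 (adjusted p = 0.0412 and 0.0292). The signal of 1566990_x_at was near that of the unspiked controls, with means of 2.27 at 16 h and 2.61 in vehicle. The call on 238043_at was lost without 16 h replicate 1 (-0.26) or 3 (-0.34) and without any single vehicle array (-0.37, -0.39 and -0.28), and with no filter, array weights or the 2 groups alone (-0.35 to -0.32). That on 1566990_x_at was lost without vehicle replicate 2 (-0.22) or 16 h replicate 2 (-0.26) and with the 2 groups alone. DPF2, a PHD-finger protein that reads histone acetylation, rose by 0.49 ± 0.08, with 6.02 to 6.31 at 16 h against 5.63 to 5.74 in vehicle (adjusted p = 0.000655). The neuronal paralog DPF1 was dim, with means of 2.72 at 16 h and 2.85 in vehicle, and did not pass.

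The 4 subunits that define PBAF all had 16 h arrays outside the range of the vehicle arrays on the brightest probe set, as had 15 of the 27 tested members and 51.5% of all genes. BRD7, a bromodomain protein, had on 222737_s_at 8.28, 7.94 and 8.10 in vehicle, 7.98, 7.85 and 7.76 at 4 h, 8.14, 8.11 and 7.99 at 6 h, and 7.63, 7.61 and 7.55 at 16 h. It fell by 0.51 ± 0.09 at 16 h (limma, adjusted p = 0.000782). Averaged over its tested probe sets BRD7 did not pass (-0.13, adjusted p = 0.162). BRD7 238545_at rose, with 4.90, 4.58 and 4.85 at 16 h against 4.28, 4.48 and 4.06 in vehicle (0.50 ± 0.12, adjusted p = 0.00689). BRD7 221776_s_at had -0.20 ± 0.07 (adjusted p = 0.044), a call lost when any single array of the compared groups was left out (-0.23 to -0.15) and with no filter, array weights or the 2 groups alone, and 228289_at had -0.32 ± 0.27.

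PBRM1 (BAF180), the polybromo subunit, had on 223238_s_at 7.42, 7.60 and 7.55 in vehicle, 7.60, 7.71 and 7.67 at 4 h, 7.60, 7.64 and 7.63 at 6 h, and 7.69, 7.78 and 7.81 at 16 h. The rise at 16 h was 0.24 ± 0.07 (limma, adjusted p = 0.0125). It did not pass once vehicle replicate 1 was left out (0.18, adjusted p = 0.052), nor with median centring (0.14, adjusted p = 0.0978), with the 2 groups fitted alone (adjusted p = 0.053), as a mean of its probe sets (0.13, adjusted p = 0.15) or with probe sets of neither suffix preferred (0.26, adjusted p = 0.249). PBRM1 220355_s_at fell, with 7.00, 7.00 and 6.87 at 16 h against 7.46, 7.25 and 7.20 in vehicle (-0.35 ± 0.08, adjusted p = 0.00642). The other 4 tested probe sets of PBRM1 had changes of 0.14 to 0.30 and did not pass.

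ARID2 (BAF200), the AT-rich binding subunit of PBAF, had on 225486_at 8.31, 8.39 and 8.33 in vehicle, 8.62, 8.50 and 8.53 at 4 h, 8.31, 8.46 and 8.41 at 6 h, and 8.14, 8.28 and 8.10 at 16 h. The change at 16 h was -0.17 ± 0.07 and did not pass (limma, adjusted p = 0.0695). ARID2 225490_at fell, with 4.40, 4.02 and 4.22 at 16 h against 5.32, 4.91 and 5.16 in vehicle (-0.92 ± 0.12, adjusted p = 0.000146). ARID2 1553349_at rose, with 4.12, 4.44 and 3.50 at 16 h against 2.64, 2.37 and 2.48 in vehicle, where it was little above the unspiked controls (1.53 ± 0.21, or 2.88-fold, adjusted p = 0.000183). The last 2 probe sets do not overlap between the groups and moved in opposite directions, while 231090_s_at had 0.01 ± 0.10. PHF10 (BAF45A), a PHD-finger protein, fell by 0.31 ± 0.08 on 225048_at (adjusted p = 0.00956), with 7.54 to 7.63 at 16 h against 7.69 to 7.98 in vehicle, and had -0.13 ± 0.09 on 219126_at.

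Of the 3 subunits that define ncBAF, 0 passed on the brightest probe set at 16 h (limma), beside 42.8% of all genes. BRD9, its bromodomain subunit and the target of several degraders, had 0.15 ± 0.11. BICRA and BICRAL, the paralogous subunits with a GLTSCR domain, had -0.16 ± 0.14 and 0.26 ± 0.12 (limma, adjusted p = 0.366 and 0.0961). A further probe set of BICRAL, 38892_at, passed with 0.33 ± 0.09 (adjusted p = 0.0151), which did not hold after leaving out vehicle replicate 1 (0.26, adjusted p = 0.0635) or 16 h replicate 2 (0.30, adjusted p = 0.0547).

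BCL7A, BCL7B and BCL7C are small paralogous proteins bound to the ATPase, and BCL7A is mutated in lymphomas. BCL7A, on 203796_s_at, had 6.06, 5.21 and 5.69 in vehicle, 4.66, 4.17 and 4.53 at 4 h, 4.72, 4.48 and 4.66 at 6 h, and 4.42, 4.00 and 4.31 at 16 h. All 9 treated arrays lie below all vehicle arrays, and the vehicle arrays spread widely (SD 0.43). The changes were -1.20 ± 0.19, -1.03 ± 0.19 and -1.41 ± 0.19 at 4 h, 6 h and 16 h, or 2.3-fold, 2.05-fold and 2.66-fold lower. They passed at 4 h and 16 h (limma, adjusted p = 0.0192 and 0.000141) and not at 6 h over genes (adjusted p = 0.165), while over probe sets the 6 h change passed too (adjusted p = 0.0428). It was the 1 member probe set called at 4 h and the 1 called at 6 h, beside 0.293% (0.125% lower) and 0.681% (0.634% lower) of all tested probe sets.

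At 4 h BCL7A did not pass after leaving out vehicle replicate 1 (adjusted p = 0.0686) or 3 (-1.18, adjusted p = 0.0757), or 4 h replicate 2 (-1.06, adjusted p = 0.0931) or 3 (-1.24, adjusted p = 0.0767), nor with the 2 groups fitted alone (adjusted p = 0.137). Over probe sets it was lost also without 4 h replicate 1, and the 6 h call was lost without vehicle replicate 1 or 3 or any single 6 h array. At 16 h it passed in all 16 refits, with changes from -1.63 to -0.74. The other probe set of BCL7A, 203795_s_at, had 4.71, 4.59 and 4.40 in vehicle, 4.50, 4.44 and 4.57 at 4 h, 4.64, 4.64 and 4.80 at 6 h, and 4.18, 4.57 and 4.74 at 16 h. Its arrays at 4 h, 6 h and 16 h overlap those of vehicle, and its change at 16 h was -0.07 ± 0.13. The changes of the 2 probe sets differed at 16 h by 1.34 ± 0.23 (limma on the differences, adjusted p = 0.000816).

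BCL7C, on 219072_at, had 6.83, 7.04 and 6.81 in vehicle, 6.68, 6.84 and 6.89 at 4 h, 6.76, 6.92 and 6.89 at 6 h, and 6.32, 6.30 and 6.23 at 16 h. It fell by 0.61 ± 0.08 at 16 h (limma, adjusted p = 0.000111) and passed in all 16 refits, and at 4 h and 6 h its arrays overlap those of vehicle. BCL7B had a change of -0.13 ± 0.10 at 16 h (adjusted p = 0.329), with 7.57 to 7.80 at 16 h against 7.61 to 8.00 in vehicle.

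The promoters of the 3 BCL7 genes and of 2 further members were read from a RefSeq table of build GRCh38.p14, each as 250 bases before to 50 bases after the first listed start. The BCL7 genes are shown because the paralogs gave different values, and SMARCA2 and ARID1B because they hold a core motif of the ONECUT factors. Capitals mark matches, on either strand, to ATTGAT or ATCGAT, cores bound by ONECUT factors, CCGGAAG, a core bound by ETS factors, or TATAAA, the core of a TATA box. The windows are chr12:122021634-122021933, plus strand for BCL7A, chr7:73557187-73557486, minus strand for BCL7B, chr16:30894028-30894327, minus strand for BCL7C, chr9:2015097-2015396, plus strand for SMARCA2 and chr6:156775776-156776075, plus strand for ARID1B.
BCL7A: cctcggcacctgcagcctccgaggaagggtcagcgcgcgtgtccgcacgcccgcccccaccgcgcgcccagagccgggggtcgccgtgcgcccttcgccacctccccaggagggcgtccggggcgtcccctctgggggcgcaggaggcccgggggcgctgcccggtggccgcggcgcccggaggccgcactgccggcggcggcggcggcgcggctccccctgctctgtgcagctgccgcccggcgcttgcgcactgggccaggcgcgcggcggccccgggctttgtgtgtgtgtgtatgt
BCL7B: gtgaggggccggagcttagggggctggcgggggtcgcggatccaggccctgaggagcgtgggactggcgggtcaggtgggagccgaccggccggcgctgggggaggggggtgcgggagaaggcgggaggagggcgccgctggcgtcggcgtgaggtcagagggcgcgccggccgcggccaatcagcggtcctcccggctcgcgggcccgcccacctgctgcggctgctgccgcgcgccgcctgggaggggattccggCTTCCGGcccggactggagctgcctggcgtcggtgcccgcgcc
BCL7C: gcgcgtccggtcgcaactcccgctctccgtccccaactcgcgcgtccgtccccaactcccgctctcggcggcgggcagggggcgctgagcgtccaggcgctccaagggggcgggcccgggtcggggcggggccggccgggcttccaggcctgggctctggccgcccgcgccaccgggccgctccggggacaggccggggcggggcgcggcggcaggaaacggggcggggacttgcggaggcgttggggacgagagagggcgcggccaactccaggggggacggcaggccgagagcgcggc
SMARCA2: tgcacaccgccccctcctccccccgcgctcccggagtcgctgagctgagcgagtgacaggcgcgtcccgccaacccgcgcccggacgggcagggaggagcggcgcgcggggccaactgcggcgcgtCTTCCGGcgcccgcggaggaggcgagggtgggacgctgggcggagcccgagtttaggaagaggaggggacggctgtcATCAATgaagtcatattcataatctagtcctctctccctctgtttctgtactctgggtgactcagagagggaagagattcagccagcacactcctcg
ARID1B: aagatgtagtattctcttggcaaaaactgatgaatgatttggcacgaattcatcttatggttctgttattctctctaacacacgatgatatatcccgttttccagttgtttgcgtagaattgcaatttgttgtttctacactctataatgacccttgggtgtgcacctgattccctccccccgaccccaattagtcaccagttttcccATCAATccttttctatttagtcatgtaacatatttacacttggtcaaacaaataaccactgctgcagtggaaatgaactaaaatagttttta

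Of the 30 members, 26 matched an entry. SMARCC1, SMARCC2, ARID2 and ACTL6A were not read. ATTGAT stood in 2 of the 26 windows (7.69%), those of SMARCA2 and ARID1B, against 6.4% of all 27303 promoters, and ATCGAT stood in none of the 26, against 0.776% of all. CCGGAAG was in SMARCA2 and BCL7B (7.69% against 10.7%), and TATAAA in BICRA alone (3.85% against 12%). The members' windows had a median of 68.2% G and C and 32 CpG dinucleotides, against 58.3% and 14 over all promoters. The BCL7A and BCL7C windows had 80.3% G and C each and BCL7B 79.0%, while that of ARID1B had 37.7%, the lowest of the 26. These matches describe the letters of the windows and were not tied to the expression values.

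SS18 and its paralog SS18L1 (CREST) sit beside the BCL7 proteins and the actin-like ACTL6A. SS18L1, known from neurons, rose by 0.46 ± 0.07 at 16 h on 213140_s_at, with 7.98 to 8.12 at 16 h against 7.51 to 7.64 in vehicle (limma, adjusted p = 0.000216). SS18, the fusion partner in synovial sarcoma, had -0.08 ± 0.11 on 202817_s_at, while 202816_s_at rose by 0.70 ± 0.14, with 6.06 to 6.51 at 16 h against 5.41 to 5.64 in vehicle (adjusted p = 0.00183). ACTL6A (BAF53A) had 0.07 ± 0.10. BCL11A, a zinc-finger protein linked to the complexes in blood and brain, had 0.32 ± 0.20 (adjusted p = 0.219).

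Over probe sets, 11 of the 73 tested member probe sets rose and 20 fell at 16 h, and 42 did not pass. The background over 27306 probe sets was 39.7% called, 23.0% higher and 16.7% lower. With median centring 7 rose and 25 fell, beside 18.0% higher and 21.5% lower over all probe sets. Without vehicle replicate 1 the rises numbered 5 and the falls 17. That array was the highest of the 3 vehicle arrays for 13 of the 20 member probe sets that fell, for 1 of the 11 that rose and for 14 of the 42 that did not pass. The calls themselves use that array, and no such count is given over all probe sets, so it is not shown to be particular to the members.

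At least 2 probe sets were tested for 17 members. At 16 h, 15 of the 17 (88.2%) had some probe sets called and some not, against 53.6% of the 5913 genes of that kind on the array. In all, 5 members (29.4%) had probe sets called in opposite directions, namely SMARCA2, SMARCA4, ARID2, BRD7 and PBRM1, against 7.14% of all. For SMARCA4 and ARID2 the probe sets called higher, 1569073_x_at and 1553349_at, were little above the unspiked controls in vehicle (means of 2.68 and 2.50). Members had a median of 4 tested probe sets and all genes a median of 2, which gives a member more occasions to differ. The gap between the highest and the lowest change of a gene was largest for ARID2 (2.44), SMARCA2 (2.30), ARID1A (1.90), SMARCC1 (1.80) and SMARCA4 (1.73), smallest for BICRAL (0.07), and had a median of 0.78 in members and 0.38 in all genes. Probe sets with names in _s_at or _x_at, which can bind transcripts of related genes or several transcripts of a gene, make up 53 of the 92.

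A fit of the differences between each further probe set and the brightest one, added after the probe sets had been seen to differ, covered 46 pairs of 17 members. At 16 h the further probe set moved above the brightest in 9 pairs and below it in 11 (limma, adjusted p below 0.05), in 13 of the 17 genes. The background over 10073 pairs was 34.2%, 13.0% above and 21.2% below. The pairs furthest apart were SMARCA2 212257_s_at (-2.30 ± 0.31), ARID1A 210649_s_at (-1.90 ± 0.10), SMARCC1 201072_s_at (-1.80 ± 0.22) and ARID2 1553349_at (1.69 ± 0.19). At 4 h no member pair passed, beside 0.00% of all pairs, and 9 of the 46 had an unadjusted p below 0.05, as did 1364 of the 10073. At 6 h 1 passed, that of BCL7A (1.16 ± 0.23, adjusted p = 0.0296), beside 2.00% of all pairs (0.149% above the brightest).

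**Figure D3:**
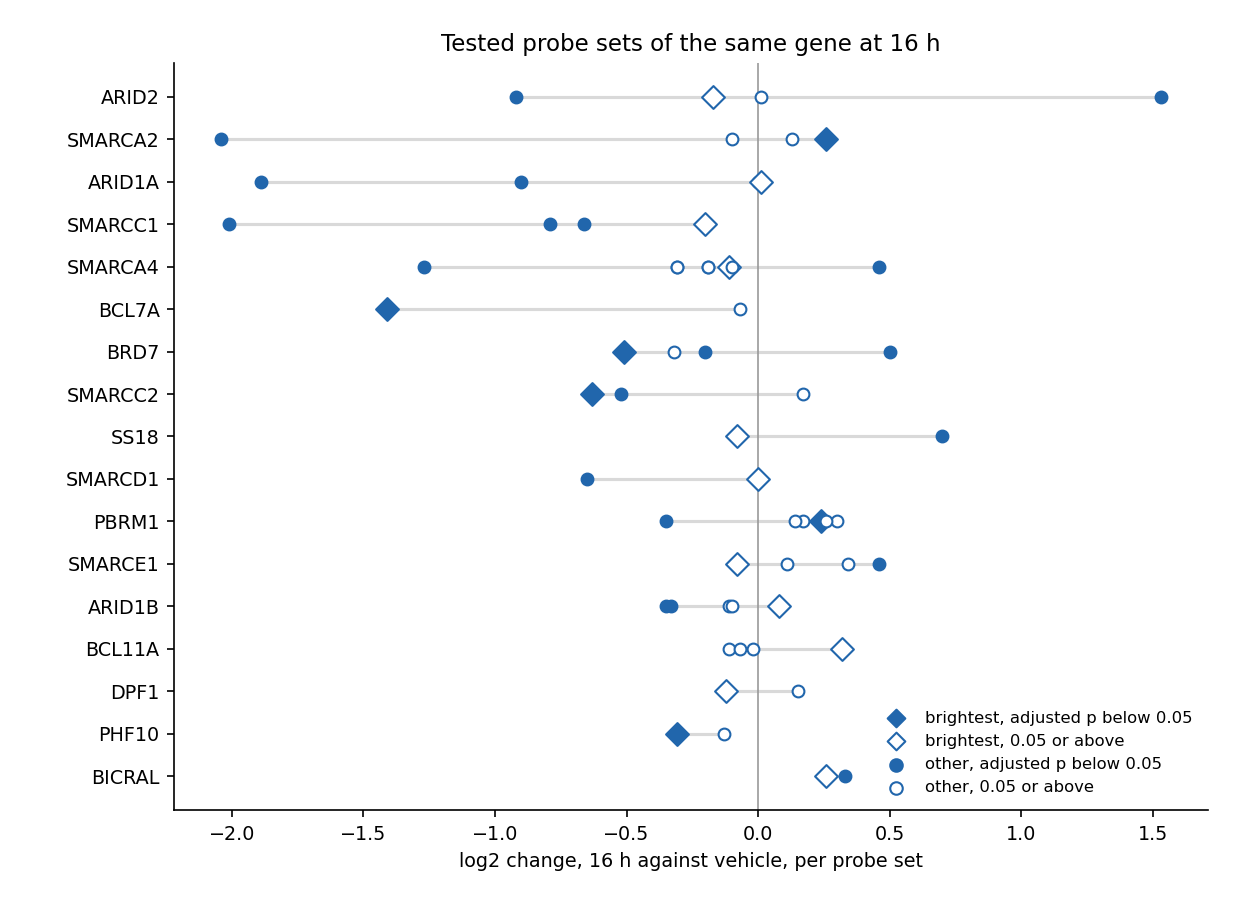
Log2 change at 16 h against vehicle (horizontal axis) for each tested probe set of the 17 subunit genes with at least 2, ordered by the gap between their highest and lowest change; diamonds are the brightest probe set and filled marks passed limma's adjusted p of 0.05 over probe sets. ARID2 spans 2.44 and has filled marks on both sides of zero, as have SMARCA2, SMARCA4, BRD7 and PBRM1, and the brightest probe set of SMARCC1 is open here (adjusted p = 0.0619) though it passed over genes.

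The treated groups were also compared with each other. Between 6 h and 4 h no member passed, beside 0.0950% of all genes, and 3 of the 27 had an unadjusted p below 0.05 (limma), as did 1187 of the 12635 genes. Between 16 h and 6 h, 5 members rose (SMARCA2, SMARCD3, DPF2, BICRAL and SS18L1) and 5 fell (SMARCB1, ARID2, BRD7, PHF10 and BCL7C), beside 42.7% of all genes called, 25.1% higher and 17.6% lower. The largest differences were 0.60 ± 0.07 for SS18L1 (adjusted p = 3.41e-05) and -0.60 ± 0.08 for SMARCB1 (adjusted p = 8.79e-05). BCL7A had -0.38 ± 0.19 (adjusted p = 0.141), with treated arrays of all times below vehicle. With median centring 2 members rose and 9 fell, beside 18.8% and 25.8% of all genes, and with quantile normalisation 2 rose and 7 fell, beside 20.9% and 24.2%. Without 16 h replicate 2 or 6 h replicate 1 the rises numbered 3. Between 16 h and 4 h, 4 members rose (SMARCD3, DPF2, SS18L1 and BCL11A) and 7 fell (limma, adjusted p below 0.05). The falls were those of SMARCB1, SMARCC1, SMARCC2, ARID2, BRD7, PHF10 and BCL7C. Over all 12635 genes, 3130 were higher and 2038 lower in that comparison. It was not refitted under other settings.

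Other families of remodelling enzymes were read on the same arrays. Of the ISWI family and its partners, which space nucleosomes, 12 of 13 genes were tested, and at 16 h 1 rose and 6 fell, with a median change of -0.23, beside 26.0% of all genes higher and 16.8% lower. RSF1 fell by 1.06 ± 0.19 and BAZ1A by 0.94 ± 0.12 (limma, adjusted p = 0.000784 and 6.01e-05). Of the CHD and NuRD genes, which include deacetylase partners, 17 of 18 were tested, 3 rose and 4 fell, and the median was -0.02. For INO80, SRCAP and TIP60, which exchange histone variants, all 27 were tested, 5 rose and 4 fell, and the median was 0.03. No gene of these 3 lists passed at 4 h or 6 h, when 0.459% and 0.0317% of all genes did. Against these, the 27 tested BAF and PBAF genes had 5 rises, 7 falls and a median of -0.08, and no test of the difference between families was made.

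**Figure D4:**
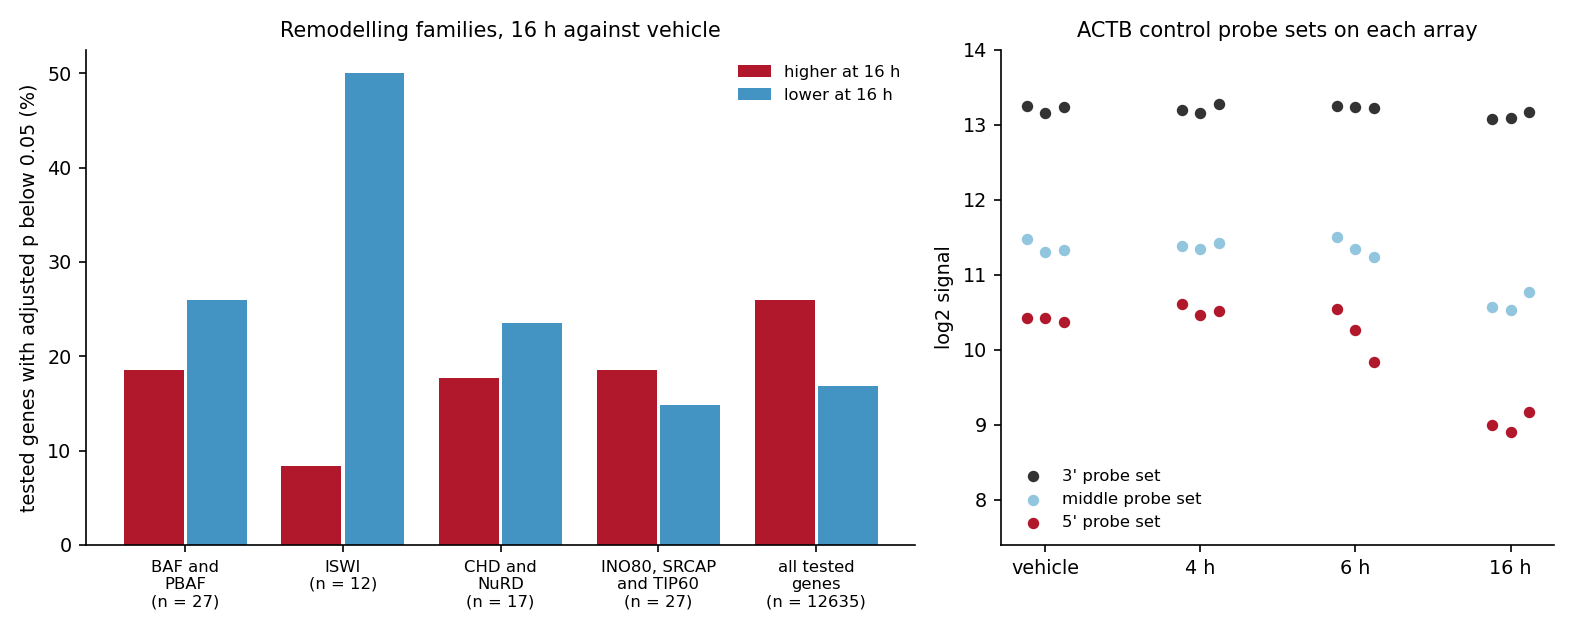
Left, share of tested genes (vertical axis, %) of each remodelling family that passed limma's adjusted p of 0.05 at 16 h against vehicle, in red higher and in blue lower, with the number tested under each pair of bars and all 12635 genes at the right. Right, log2 signal of the ACTB control probe sets on each array; the 5' values at 16 h lie between 8.91 and 9.17, below every other array.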

How the data were processed

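Per the submitters' processing notes, the authors processed the 12 arrays with GCRMA (version not given), and the deposited values are log2 signals per probe set. Background correction and summarisation were therefore done by the authors, and no scanner file was used here. Probe sets were named through the platform annotation, updated against a RefSeq gene table. No genome build is given for the probe sets. The 12 arrays entered 1 model per gene or probe set (lmFit and eBayes of limma 3.58.1, under R 4.3.3) with the 4 groups as factors. The prior degrees of freedom were 3.69 for genes and 3.75 for probe sets, beside 8 residual ones. P-values are two-sided, adjusted by Benjamini-Hochberg over all genes or probe sets tested, and errors are the model's SE unless SD is stated. The members, lists and tests were chosen with earlier results of these data known. The fit of differences between probe sets was added after the data were seen. Array values are given for SMARCA4, SMARCA2, ARID1A, ARID1B, ARID2, PBRM1, SMARCB1 and BCL7A, for members called against vehicle with a change of at least 0.5, and for members whose probe sets were called in opposite directions. A few further probe sets were chosen after their values were seen. The fits were tested on simulated data. Alternatives were other scalings, filters, gene summaries, priors, array weights, the 2 groups alone, a replicate block and leaving out each array. The number of arrays limits the precision.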

Additional observations from a re-analysis of the deposited data

Results flagged for a closer look

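The subunit genes that differed between 2 treatment times numbered 10 of the 27 tested, by the test of 16 h against 6 h (limma, adjusted p below 0.05). Of all genes tested, 42.7% were called in this comparison, so the members do not stand out by their number. The differences on the log2 scale were 0.60 for SS18L1, 0.53 for DPF2, 0.33 for BICRAL, 0.25 for SMARCD3 and 0.22 for SMARCA2. They were -0.60 for SMARCB1, -0.58 for BCL7C, -0.49 for BRD7, -0.30 for PHF10 and -0.22 for ARID2. For SMARCB1, DPF2, PHF10, BCL7C and SS18L1 the call held in every refit run. The BICRAL arrays overlap between the times, with 7.21 to 7.41 at 16 h and 6.73 to 7.23 at 6 h. No group has more than 3 arrays, so single arrays were not screened for outlying values.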

How the results depend on the processing

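The 12 calls of member genes at 16 h against vehicle were refitted 189 times: 163 refits kept direction and call, 24 lost the call and 2 turned the direction, and 7 genes kept their call throughout. The 20 further probe sets called at 16 h kept direction and call in 237 of 273 refits and lost the call in 36; none of those refits turned a direction. At 16 h against 6 h, 128 of 157 refits of 10 genes kept both, 26 lost the call and 3 turned the direction. Averaging used all probe sets of each tested gene, also those under the filter. It turned SMARCA2 to -0.27 (16 h against vehicle) and -0.05 (16 h against 6 h), and ARID2 to 0.10 (16 h against 6 h). It took BRD7 to -0.13 (16 h against vehicle) and -0.05 (16 h against 6 h), neither of which passed. Giving preference to probe sets with neither suffix (_s_at, _x_at) turned BRD7 to 0.50 against vehicle and 0.44 against 6 h, and left 4 members lower at 16 h. Median centring gave 2 members and 7 probe sets higher at 16 h against vehicle, 2 higher and 9 lower at 16 h against 6 h, and 0 probe sets lower at 6 h. Quantile normalisation gave 2 members higher at 16 h against 6 h and 0 probe sets lower at 6 h, and no filter gave 3 members higher at 16 h against 6 h. A filter at the 75th percentile, which tests fewer probe sets, gave 6 member probe sets higher at 16 h and 3 further probe sets that moved above the brightest. A trended and robust prior gave 1 member and 4 probe sets lower at 6 h, and array weights 2 probe sets. Fitting only the 2 groups compared gave 0 members and 0 probe sets lower at 4 h, 0 probe sets lower at 6 h and 7 higher at 16 h. The replicate block gave 1 member and 3 probe sets lower at 6 h, 5 members higher and 6 lower at 16 h, SMARCC1 (-0.20, adjusted p = 0.0541) and BRD7 221776_s_at (-0.20, adjusted p = 0.0583) no longer passing; same-numbered arrays correlated from 0.00 to 0.24, so the numbers were not taken to pair the arrays. Leaving out 1 array gave 2 to 5 members higher and 6 to 7 lower at 16 h, 0 to 1 lower at 4 h and 0 to 1 lower at 6 h, and 3 to 6 higher and 4 to 6 lower at 16 h against 6 h. It gave 5 to 11 probe sets higher and 16 to 19 lower at 16 h, 0 to 2 lower at 4 h, 0 to 3 lower at 6 h, and 7 to 8 further probe sets above and 8 to 11 below the brightest. The largest of the early counts, 2 probe sets at 4 h, 3 probe sets at 6 h and 1 member at 6 h, came without vehicle replicate 2. Shares over all genes or probe sets are given above only for some counts with the other scalings. The other counts of refits therefore cannot be set against the array as a whole, and do not single out the members. Unless stated, the cause of these differences was not tested. Probe sets near the unspiked controls, such as ARID2 1553349_at in vehicle, are limited by background.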
